A study of Homo sapiens with 16 samples.

Results

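The phosphofructokinases and the PFKFB regulators were followed as 7 genes: PFKP, PFKL and PFKM, PFKFB2, PFKFB3 and PFKFB4, and TIGAR. They were picked by symbol from a table of 63187 genes, and all 7 were among the 19530 genes with enough counts to be tested. PFKFB1, the remaining PFKFB gene, had 2 to 16 counts per library and is given only where shares are formed. The 7 genes were named with earlier results of these data known, above all the higher PFKP and PFKFB4 in the c-IDR group and the set-apart batch 2, so values of those contrasts are a description and carry no test.

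The 16 poly(A)-selected, stranded RNA-seq libraries came from SK-N-BE(2), an established line of human neuroblastoma cells in which MYCN is amplified. WT were wild-type cells, and the other 3 groups were cells transfected with a form of HIF-2α, the oxygen-regulated transcription factor subunit encoded by EPAS1. FL was the full-length protein, and N-CTAD and c-IDR were the forms written ΔN‑CTAD and Δc‑IDR in the study's design, where Δ is read as a deletion. Library names in the labels, which also head the table columns, call the WT group CTRL, the FL group WT and the line BE2c. Groups here follow the sample titles and genotypes. Each group had 4 libraries, 1 in each of batches 1 to 4, and all cells grew at 21% oxygen with 10% serum. Sources used here do not give the deleted residues, the vector, the time after transfection or whether WT cells received an empty vector, so transfection and HIF-2α cannot be told apart in any comparison with WT. Nothing states that replicates came from separate cultures, so p-values measure only the spread between these libraries.

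Phosphofructokinase 1 (PFK) phosphorylates fructose 6-phosphate to fructose 1,6-bisphosphate, the committed step of glycolysis. It works as a tetramer of muscle (PFKM), liver (PFKL) and platelet (PFKP) subunits, which can mix. Its strongest activator is fructose 2,6-bisphosphate, made and broken down by the bifunctional PFKFB enzymes, which carry a kinase and a bisphosphatase in 1 chain. PFKFB3 has high kinase relative to bisphosphatase activity, PFKFB4 and PFKFB2 are more balanced, and TIGAR is a separate phosphatase that lowers fructose 2,6-bisphosphate. PFKFB3 and PFKFB4 are known as targets of hypoxia-inducible factors.

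Totals ran from 38.6 to 56.1 M (mega) estimated counts, and a count of 0 allows at most 0.0778 counts per 1 M counts (CPM) in the shallowest library, a limit for counting error only. EPAS1, whose endogenous and transfected copies are counted together, ranged from 13.0 to 28.1 CPM in WT and from 1320 to 5852 CPM in the transfected groups, as the labels say. All 8 neuroblastoma markers looked at had a median of at least 1 transcript per 1 M transcripts (TPM), as had 3 of the 4 fibroblast markers, and none of the 5 leukocyte, 4 endothelial and 4 epithelial markers did. The 4 libraries of batch 2 stood apart from the other 12, also for these 7 genes, so calls among the members and lists are also given without them.

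Positions are on GRCh38.p14 from RefSeq. PFKP spans chr10:3067548-3136805 and PFKFB3 chr10:6144921-6326637, PFKL spans chr21:44300053-44327373, PFKM chr12:48105353-48146404 and TIGAR chr12:4321213-4360028, and PFKFB2 spans chr1:207034416-207081027, all on the plus strand. PFKFB4 spans chr3:48517684-48563136 on the minus strand. In GENCODE 29, SENP1 overlaps PFKM and YOD1 overlaps PFKFB2 on the opposite strand. SENP1 had 1362 to 2451 counts per library against 7963 to 13380 for PFKM. YOD1 had 1193 to 2294 against only 120 to 231 for PFKFB2. No source used here states the strand setting of the counting, so PFKFB2 is the least certain of the 7. AC006122.1 on the strand opposite TIGAR had 46.4 to 212 counts.

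Sequence before a start site is shown for the genes whose values moved, because hypoxia-inducible factors bind a short core. The core is written here as ACGTG or GCGTG and was searched on both strands. The RefSeq table holds 1 or more windows of 250 bases before a start site for 6 of the 7 genes; PFKFB2 was not among them. Either core occurred in 43.1% of the 34788 different windows of that length over all genes, ACGTG in 18.5% and GCGTG in 32.2%. PFKP had a match in 2 of 4 windows, PFKFB3 in 2 of 2, PFKM in 1 of 7, and PFKL, PFKFB4 and TIGAR each in the 1 window they had. Of several windows of a gene below, the 1 with most ACGTG was taken. The stretches of PFKP, PFKFB3 and PFKFB4 lie inside the gene spans given above, before a start site within the gene. For each gene below, the part of 1 matching window that touches no GENCODE 29 exon is printed 5′ to 3′ on the gene's strand, with matches in capitals:
PFKP (chr10:3068939-3069188, + strand): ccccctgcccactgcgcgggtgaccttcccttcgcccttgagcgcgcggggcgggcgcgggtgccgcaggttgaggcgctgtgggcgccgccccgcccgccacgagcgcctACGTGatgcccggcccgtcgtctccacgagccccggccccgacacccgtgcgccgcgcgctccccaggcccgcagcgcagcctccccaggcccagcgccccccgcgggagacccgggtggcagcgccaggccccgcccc
PFKL (chr21:44299803-44300050, + strand): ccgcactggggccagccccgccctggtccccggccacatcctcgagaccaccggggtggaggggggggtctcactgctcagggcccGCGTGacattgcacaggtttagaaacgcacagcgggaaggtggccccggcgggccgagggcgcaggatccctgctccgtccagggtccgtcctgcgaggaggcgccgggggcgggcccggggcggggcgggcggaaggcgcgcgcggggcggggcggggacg
PFKFB3 (chr10:6202694-6202865, + strand): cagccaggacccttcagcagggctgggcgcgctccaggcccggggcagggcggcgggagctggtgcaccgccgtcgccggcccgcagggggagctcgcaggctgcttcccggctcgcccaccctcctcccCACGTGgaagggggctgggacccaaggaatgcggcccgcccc
PFKFB4 (chr3:48556924-48556982, - strand): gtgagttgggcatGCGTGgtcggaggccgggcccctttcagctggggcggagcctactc
TIGAR (chr12:4320963-4321204, + strand): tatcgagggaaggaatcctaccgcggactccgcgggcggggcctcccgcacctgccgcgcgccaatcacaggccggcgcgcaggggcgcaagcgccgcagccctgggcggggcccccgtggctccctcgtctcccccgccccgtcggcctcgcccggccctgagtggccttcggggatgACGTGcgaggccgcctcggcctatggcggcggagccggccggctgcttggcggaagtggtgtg
The match lies 139 bases before the listed start site in PFKP, 164 in PFKL, 166 in PFKFB4 and 71 in TIGAR. In PFKFB3 an ACGTG on each strand overlaps in a palindrome that begins 108 bases before the start. These stretches are rich in G and C, from 69.5% in PFKFB4 to 81.6% in PFKP. Which start sites these cells use was not measured, and a match is no evidence of binding. TIGAR holds ACGTG as PFKP does, and the part of the core in any value was not tested.

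PFKM was by far the most abundant of the 7. Per length, it had 115 to 172 TPM over the 16 libraries with a median of 137. PFKL followed with a median of 16.4 TPM (13.8 to 35.9) and TIGAR with 13.9 (8.51 to 18.8). PFKP had a median of 5.57 TPM (4.28 to 32.5), PFKFB3 4.76 (3.92 to 18.3), PFKFB4 3.53 (2.53 to 24.1) and PFKFB2 0.842 (0.574 to 1.29). The order depended on the batch. In batches 1, 3 and 4 the ranges of PFKL (13.8 to 18.2 TPM) and TIGAR (8.51 to 18.8) overlapped, and so did those of PFKP (4.28 to 9.55), PFKFB3 (3.92 to 5.12) and PFKFB4 (2.53 to 4.56), although PFKFB3 exceeded PFKFB4 in each of these 12 libraries. In batch 2 PFKP (20.7 to 32.5 TPM) overlapped PFKL (26.1 to 35.9) and PFKFB4 (13.2 to 24.1), and PFKFB3 (10.7 to 18.3) overlapped PFKFB4 and TIGAR (9.24 to 13.9). PFKM lay above all others and PFKFB2 below all others in every library.

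PFKP, the platelet-type subunit, showed the clearest group pattern. In WT it had 7.22, 33.0, 8.64 and 7.53 CPM in batches 1 to 4, in FL 8.81, 35.5, 9.31 and 8.42, and in N-CTAD 8.45, 32.9, 9.66 and 8.86. In c-IDR it had 17.5, 55.2, 13.8 and 13.95 CPM. The c-IDR library was the highest of the 4 groups in every batch, and outside batch 2 the 3 c-IDR values lay above all 9 values of the other groups. Across batches the groups overlapped, because every batch 2 library exceeded every library of the other batches. In such bulk RNA, more cells with PFKP and more PFKP RNA per cell cannot be told apart.

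**Figure D1:**
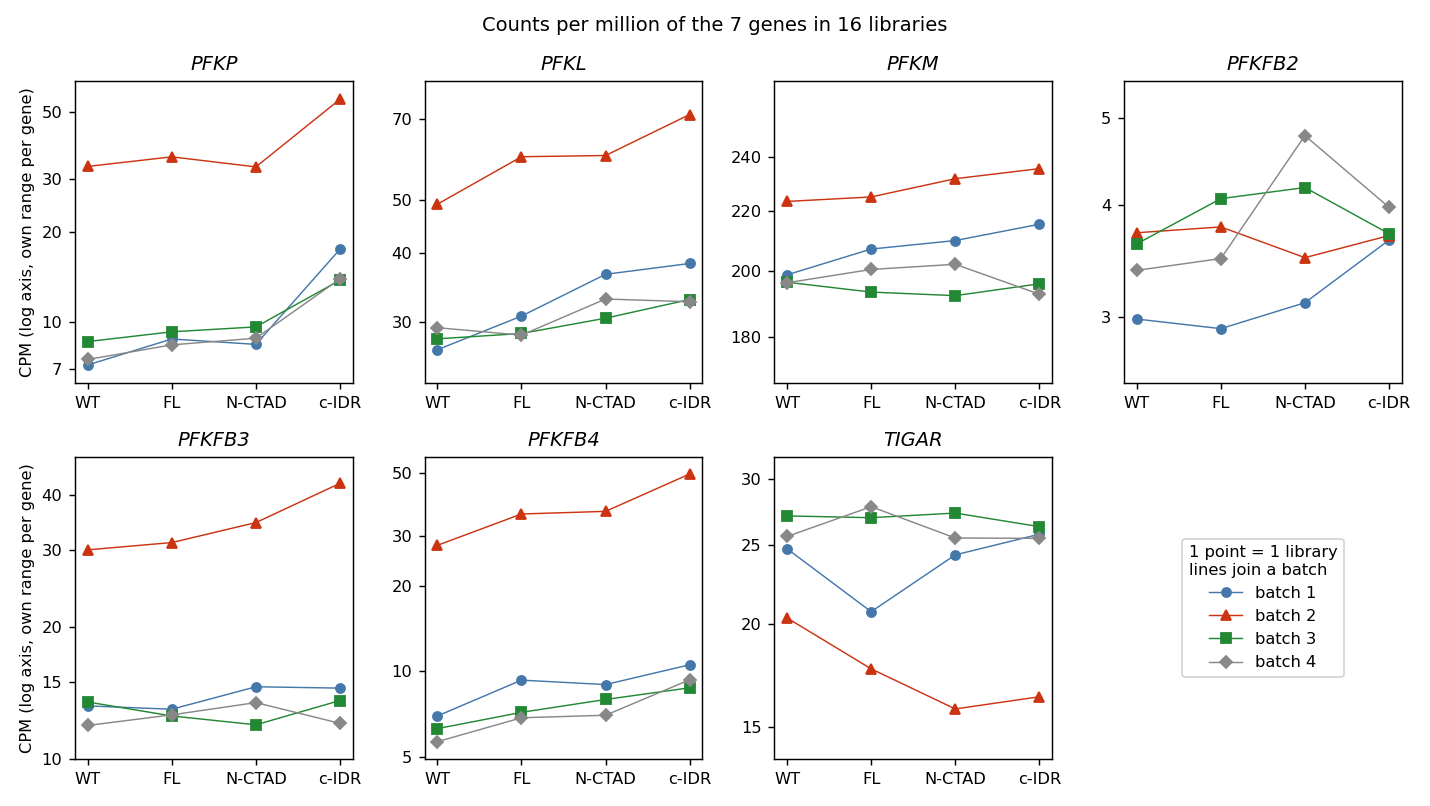
CPM (log axis with its own range for each gene) of the 7 genes by group, 1 point per library and 1 line per batch. Batch 2 lies above the other batches for PFKP, PFKL, PFKM, PFKFB3 and PFKFB4 and below them for TIGAR, and PFKP steps up from N-CTAD to c-IDR on each of the 4 lines.

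Within batches, log2 CPM of PFKP was higher in c-IDR than in WT by 1.27, 0.74, 0.68 and 0.89, a mean of 0.89 ± 0.27 (SD, n = 4 batches). Against FL the differences were 0.99, 0.63, 0.57 and 0.73, and against N-CTAD 1.05, 0.75, 0.51 and 0.65, where 4.9% and 4.38% of tested genes were higher in 4 of 4 batches. The 4 c-IDR libraries thus had more PFKP RNA than their batch partners whichever group they were set against. FL exceeded WT by 0.11 to 0.29 in 4 of 4 batches, and N-CTAD exceeded WT in 3 of 4 (−0.01 to 0.23).

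PFKFB4, the testis-type regulator, was the only member higher than WT in all 4 batches for all 3 constructs. WT had 6.95, 27.7, 6.27 and 5.64 CPM, FL 9.30, 35.8, 7.16 and 6.85, N-CTAD 8.97, 36.5, 7.95 and 6.99, and c-IDR 10.5, 49.5, 8.74 and 9.32. Outside batch 2 the c-IDR values lay above those of WT and overlapped those of FL and N-CTAD. Within batches the difference from WT was 0.31 ± 0.10 for FL, 0.35 ± 0.04 for N-CTAD and 0.66 ± 0.15 for c-IDR (log2, SD, n = 4). Genes higher in 4 of 4 batches made up 5.35% of tested genes for FL, 8.86% for N-CTAD and 10.6% for c-IDR against WT.

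PFKL, the liver-type subunit, had 26.7, 49.1, 28.0 and 29.3 CPM in WT and 38.3, 71.3, 33.0 and 32.6 in c-IDR. FL had 30.7, 59.8, 28.6 and 28.4 CPM and N-CTAD 36.6, 60.1, 30.5 and 33.0. Both c-IDR (0.16 to 0.54) and N-CTAD (0.12 to 0.45) exceeded WT in log2 CPM in 4 of 4 batches, and FL did in 3 of 4. PFKFB3, the inducible regulator with the strongest kinase bias, had 13.2, 30.01, 13.5 and 11.9 CPM in WT and 14.5, 42.6, 13.6 and 12.1 in c-IDR. Its c-IDR difference was 0.50 in batch 2 and 0.01 to 0.13 in the others. FL had 13.0, 31.2, 12.5 and 12.6 CPM and N-CTAD 14.6, 34.6, 11.96 and 13.4, with no shared sign over the batches.

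PFKM, PFKFB2 and TIGAR stayed near WT. The mean within-batch difference of PFKM from WT lay between 0.02 and 0.04 (log2) for the 3 constructs, that of PFKFB2 between 0.05 and 0.17, and that of TIGAR between −0.10 and −0.08. None of the 3 had the same sign in all 4 batches in any comparison with WT.

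In the model with group alone, which is the primary fit here, the spread between batches entered the error and the SE of a group difference reached 0.67 for PFKP and 0.76 for PFKFB4. No member passed a Benjamini-Hochberg adjusted p of 0.05 in any of the 6 comparisons of groups with edgeR's quasi-likelihood test, none had an unadjusted p under 0.05, and DESeq2 called none. In that fit 0.0102% of tested genes were called for FL, 0.0256% for N-CTAD and 0.0102% for c-IDR, each against WT. The direction of a member could rest on 1 library: without the batch 2 library of c-IDR, that fit put c-IDR against WT at 0.09 for PFKP and −0.29 for PFKFB4. Same-numbered libraries share a batch in the labels, and a model with batch as a term (the replicate block) lowered the SE to between 0.04 and 0.12 for the 7 genes against WT.

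With the batch term, 3 of 7 members were past the threshold in c-IDR against WT, where 0.486% of all tested genes were. As the members were named with this contrast known, the count is a description and nothing is read from it. The log2 fold changes were 0.89 ± 0.08 (SE) for PFKP, 0.67 ± 0.07 for PFKFB4 and 0.36 ± 0.07 for PFKL, or 1.85-fold, 1.59-fold and 1.29-fold. PFKFB3 was at 0.18 ± 0.09, PFKFB2 at 0.14 ± 0.12, PFKM at 0.04 ± 0.04 and TIGAR at −0.08 ± 0.08, all short of the threshold. With each of the 8 libraries left out in turn, PFKL was past it in 3 of 8 fits. With all of batch 2 left out, the batch model called 2 members, PFKP at 0.95 ± 0.12 and PFKFB4 at 0.59 ± 0.10, among 46 genes in all (0.241%). The model without batch then called 1 member, PFKP at 0.95 ± 0.12, among 33 genes (0.173%).

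PFKP was higher by 0.73 ± 0.08 in c-IDR than in FL and by 0.74 ± 0.08 than in N-CTAD, again as a description. It was the 1 member past the threshold in each, where 0.0307% and 0.00512% of genes were. Without batch 2 neither comparison called a member in either model (0.0524% of genes were called against FL with the batch term and 0.0262% without it, and 0% against N-CTAD in both), with PFKP at 0.79 ± 0.11 against FL and 0.75 ± 0.11 against N-CTAD. PFKFB4 was higher in c-IDR than in FL by 0.35 ± 0.07 and than in N-CTAD by 0.31 ± 0.07, short of the threshold in both.

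EPAS1 itself was highest in c-IDR in every batch. It exceeded FL there by 1.27, 0.13, 0.71 and 0.88 (log2 CPM) and N-CTAD by 0.89, 0.73, 0.47 and 0.67. CPM are not scaled for length, and the size of these differences depends on the scale. In TPM, EPAS1 in batches 1 to 4 was 4562, 2523, 6399 and 6463 in c-IDR and 2861, 1899, 5942 and 5134 in N-CTAD. FL had 1451, 1950, 3497 and 3306 TPM, so c-IDR was highest on both scales. For PFKP the differences given above were 0.99, 0.63, 0.57 and 0.73 against FL and 1.05, 0.75, 0.51 and 0.65 against N-CTAD, and for PFKFB4 they were 0.18, 0.47, 0.29 and 0.44 against FL and 0.23, 0.44, 0.14 and 0.41 against N-CTAD. EPAS1 RNA, PFKP and PFKFB4 were all higher in c-IDR than in FL and N-CTAD in 4 of 4 batches, and the part of the EPAS1 amount was not tested. FL, N-CTAD and c-IDR differ in EPAS1 sequence as well as amount.

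The other 3 comparisons gave few member calls. In FL against WT no member passed with the batch term (0.102% of genes did); PFKFB4 was at 0.32 ± 0.07 with an edgeR adjusted p of 0.158, higher in 4 of 4 batches, and PFKP at 0.16 ± 0.09 with an adjusted p of 0.92. In N-CTAD against WT, where 0.456% of genes were called, PFKFB4 passed at 0.36 ± 0.07 with an edgeR adjusted p of 0.0325. That call was lost when any 1 of the 8 libraries was left out, with PFKFB4 still at 0.32 to 0.37 (edgeR adjusted p from 0.0654 to 0.25). It was also lost without batch 2 (0.33 ± 0.10, edgeR adjusted p of 0.681), where 0.325% of all genes were called. Without batch 2 no member was called in FL against WT either, where 0.0838% of all genes were, with PFKFB4 at 0.27 ± 0.10. With all batches, PFKL in N-CTAD against WT was at 0.26 ± 0.07 with an edgeR adjusted p of 0.186. In N-CTAD against FL edgeR called no member in either model, and 0% of all genes were called in each. None of the members had an edgeR unadjusted p under 0.05. With the batch term the members lay between −0.01 and 0.14 with SEs of 0.04 to 0.12.

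For PFKP, PFKFB4, PFKFB3, PFKL, PFKM and TIGAR, batch 2 differed from the other batches by more than any group from another, and for PFKFB2 it did not. PFKFB4 was 4.72-fold higher there (log2 2.24 ± 0.05 SE, model with group and batch), PFKP 3.89-fold (1.96 ± 0.06), PFKFB3 2.63-fold (1.40 ± 0.06) and PFKL 1.91-fold (0.94 ± 0.05). PFKM was 1.14-fold higher (0.19 ± 0.03), PFKFB2 was at 0.02 ± 0.10, and TIGAR was at 0.684-fold (−0.55 ± 0.07). With 5 members higher and 1 lower, 6 of 7 passed the threshold, in a contrast where 53.9% of all tested genes did, 27.7% higher and 26.1% lower. Batch 2 was singled out from these data, its 4 libraries are not replicates of a batch, and the label says only that it is a batch, so nothing is read from those calls.

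No group made an exception. For PFKFB4 the batch 2 library exceeded the mean of the other 3 by 2.14 in WT, 2.21 in FL, 2.20 in N-CTAD and 2.38 in c-IDR (log2 CPM), where the SD of the other 3 was 0.14 to 0.24. For PFKP the excess was 2.08, 2.00, 1.87 and 1.88, and for PFKL 0.81, 1.03, 0.85 and 1.05. PFKFB3 was up by 1.22, 1.29, 1.38 and 1.67, so its excess was greatest in c-IDR. The excess was present in cells with no transfected HIF-2α as in those with it.

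In CPM, the 4 batch 2 libraries lay above the other 12 for PFKP (32.9 to 55.2 against 7.22 to 17.5), PFKFB4 (27.7 to 49.5 against 5.64 to 10.5), PFKFB3 (30.01 to 42.6 against 11.9 to 14.6), PFKL (49.1 to 71.3 against 26.7 to 38.3) and PFKM (224 to 236 against 192 to 216). Genes with that pattern made up 14.4% of those tested. TIGAR had 20.4, 17.7, 15.8 and 16.3 CPM in batch 2 (WT, FL, N-CTAD, c-IDR) and 20.7 to 27.8 in the other 12, and 14.6% of genes lay below in this way. On the TPM scale TIGAR did overlap, at 9.24 to 13.9 against 8.51 to 18.8. Its counts per TPM, a measure of the transcript length that salmon assigned, varied by a CV of 14.3% over libraries against 3.04% to 7.99% for the other 6 genes, and the mean relative length was 1.10 in batch 2 and 1.28 elsewhere. The lower TIGAR of batch 2 is therefore clear in counts and not in TPM. PFKFB2 had 3.49 to 3.78 CPM in batch 2, inside the 2.91 to 4.78 of the others.

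EPAS1 was lower in batch 2 in N-CTAD and c-IDR, and in FL it lay within the spread of the other batches. Relative to the mean of the other 3, its batch 2 library was at −0.42 in FL, −1.30 in N-CTAD and −1.24 in c-IDR (log2 CPM), and at 0.93 in WT. The SD of the other 3 was 0.58, 0.49, 0.30 and 0.21 in that order. FL had 2001 CPM in batch 2 and 1691 in batch 1. Batch 2 therefore combined the highest PFKP, PFKFB3 and PFKFB4 with less EPAS1 RNA in N-CTAD and c-IDR than in the same groups of other batches. Summed TPM of the 4 fibroblast markers, COL1A1, DCN, LUM and PDGFRB, was 106 to 111 in batch 2 and 45.3 to 60.3 elsewhere, and 3 of the 4 had a median above 1 TPM. Of the 4 endothelial markers 2 were tested, and 2 were called higher in batch 2 (log2 2.03 to 2.22). Summed TPM of the 4 was only 0.286 to 0.606 there and 0.0244 to 0.275 elsewhere. Of the 8 neuroblastoma markers, 4 were called higher and 2 lower in batch 2, where 27.7% of all genes were higher and 26.1% lower, and their summed TPM was 5156 to 5505 there and 5371 to 6189 elsewhere. Mean TPM in batch 2 and elsewhere was 1964 and 1985 for MYCN, 1724 and 2351 for CHGA, 65.4 and 100.5 for GATA3, 611 and 490.1 for HAND2, 358 and 212 for DBH and 9.63 and 2.07 for TH. The part of these in the batch 2 values was not tested.

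The mix of PFK subunit RNAs shifted with both contrasts. PFKM made up 83.5% to 88.0% of the summed TPM of the 3 subunits in batches 1, 3 and 4 (n = 12) and 69.9% to 78.5% in batch 2 (n = 4). PFKP made up 2.78% to 5.56% and 9.28% to 14.3%, and PFKL 9.15% to 11.6% and 11.9% to 15.8%. The summed level was 155 ± 11.1 TPM (SD, n = 12) and 221 ± 5.62 (SD, n = 4). PFKM thus remained the main subunit RNA in every library while its share was lower in batch 2.

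In WT the PFKP share was 2.89%, 9.55%, 3.34% and 2.78% in batches 1 to 4, and in c-IDR 5.51%, 14.3%, 5.56% and 5.22%. FL had 3.51%, 10.3%, 3.54% and 3.00%, and N-CTAD 2.94%, 9.28%, 3.71% and 3.13%. Within batches c-IDR exceeded WT by 3.01 ± 1.18 percentage points (SD, n = 4), and the 3 c-IDR values outside batch 2 lay between 5.22% and 5.56%, above the 2.78% to 3.71% of the other groups. The PFKM share of c-IDR minus that of WT was −4.96 ± 2.44 points, negative in 4 of 4 batches.

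Among the PFKFB genes, PFKFB3 was the leading RNA outside batch 2 and PFKFB4 within it. PFKFB3 held 46.1% to 54.4% of the summed TPM in batches 1, 3 and 4 and 37.1% to 42.9% in batch 2. PFKFB4 held 33.5% to 44.6% and 53.2% to 59.4%. The ratio of PFKFB4 to PFKFB3 in TPM was 0.615 to 0.953 in the 12 libraries and 1.24 to 1.60 in the 4, so the order of the pair was reversed in every batch 2 library and in no other. The summed PFKFB level was 9.06 ± 0.866 TPM (SD, n = 12) and 32.6 ± 7.79 (SD, n = 4). PFKFB2 made up 7.03% to 13.7% of the sum in the 12 libraries and 1.85% to 3.61% in the 4, while its own level overlapped between them, and PFKFB1 was at most 2.42%.

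Against WT, the PFKFB4 share was higher in 4 of 4 batches for each construct, by 3.89 ± 2.57 points in FL, 4.38 ± 1.97 in N-CTAD and 6.11 ± 2.51 in c-IDR (SD, n = 4). The PFKFB3 share was lower in 4 of 4 batches for each. For FL, N-CTAD and WT, 18 exact two-sided permutation tests (6 genes, 3 comparisons, 4 libraries against 4) gave a smallest p of 0.229 where the design allows 0.0286, and a Benjamini-Hochberg adjusted p of 1 for all. These tests leave out the batch that same-numbered libraries share, so the spread between batches enters them, and an exact sign-flip test of the 4 within-batch differences could not go below 0.125. These shares come from gene-level values, so splice isoforms within a gene, such as those of PFKFB3, were not analysed here.

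Neighbouring steps of the pathway were read from lists chosen with earlier results known. Of 21 other glycolysis genes tested, 5 were called higher and 0 lower in c-IDR against WT with the batch term (0.486% of all genes were called), with a median log2 fold change of 0.17 against 0.01 for all genes. In N-CTAD against WT 1 was called higher (0.456% of all genes were called), and in FL against WT (0.102%) edgeR called 0, with 5 at an unadjusted p under 0.05. In the model without batch, edgeR called 0 of the 21 in c-IDR, N-CTAD and FL against WT, with 3, 1 and 1 at an unadjusted p under 0.05. Without batch 2, with the batch term, 1, 1 and 0 were called in the same order, where 0.241%, 0.325% and 0.0838% of all genes were. In c-IDR against WT the 4 with the smallest adjusted p were ALDOC (0.48 ± 0.07), ALDOA (0.32 ± 0.05), both fructose-bisphosphate aldolases, the glucose transporter SLC2A3 (0.77 ± 0.14) and PDK1 (0.64 ± 0.12), the kinase that inhibits pyruvate dehydrogenase. In batch 2, 14 were higher (27.7% of all genes were) and 1 lower, the lactate carrier SLC16A1 (−0.56 ± 0.04), with a median of 0.40 against 0.03 for all genes. PDK1 (2.81 ± 0.08), ALDOC (1.87 ± 0.06), hexokinase HK2 (1.25 ± 0.06) and PGK1 (0.77 ± 0.05) had the smallest adjusted p there. The 6 not called were SLC2A1, HK1, ENO3, PKM, LDHA and LDHB, named after their values were seen, at −0.11 to 0.05.

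**Figure D2:**
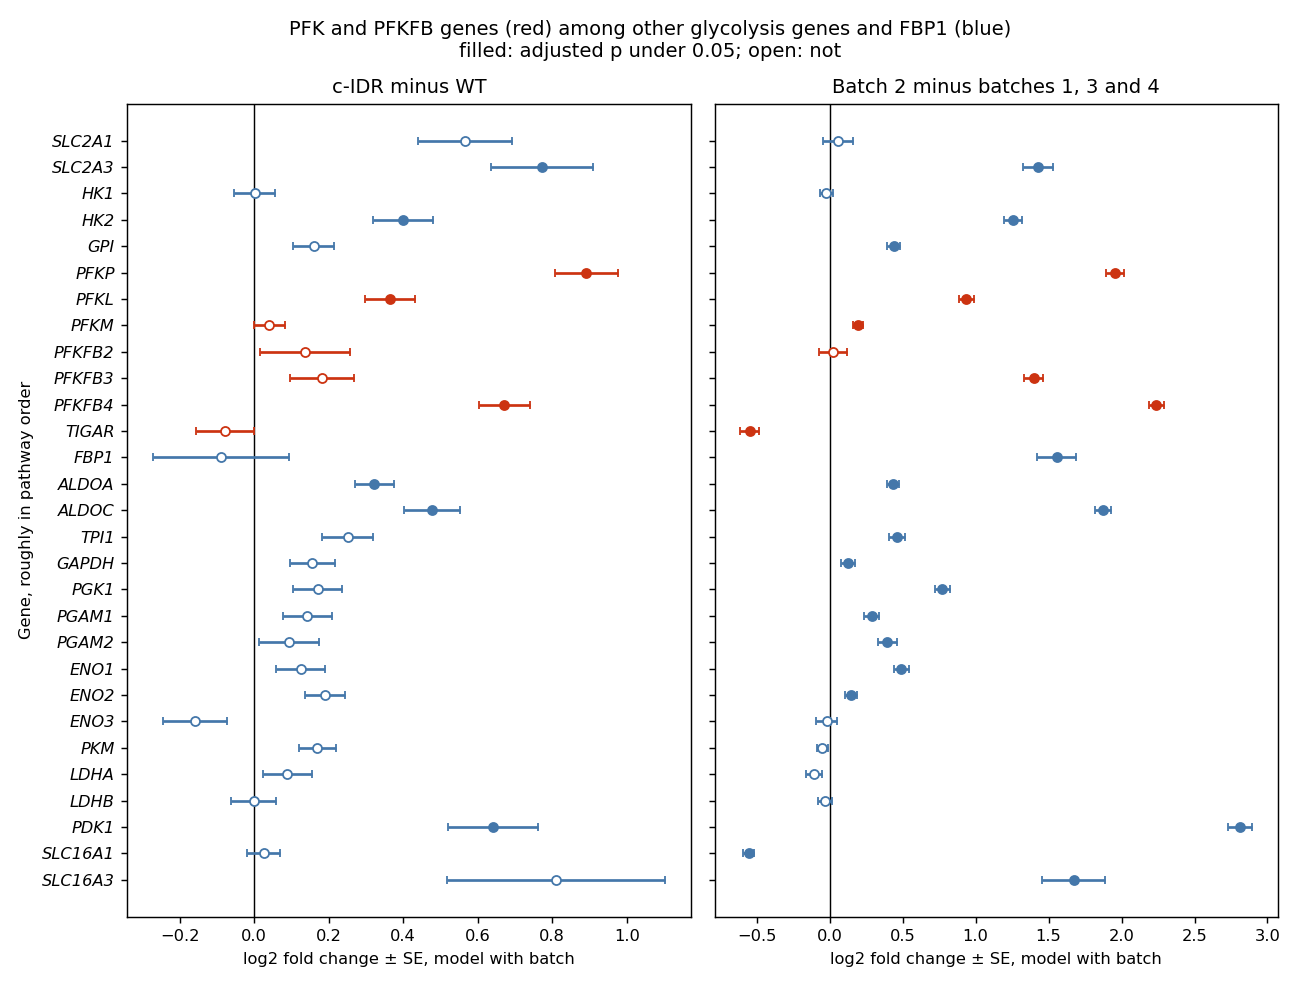
Log2 fold change ± SE from the model with batch, for the 7 genes (red) and other genes of glycolysis with FBP1 (blue), in c-IDR against WT (left) and batch 2 against batches 1, 3 and 4 (right, wider axis). Filled points passed an adjusted p of 0.05; PFKP and PFKFB4 lie to the right in both panels, at 0.89 and 0.67 and at 1.96 and 2.24, and TIGAR lies left of 0 in batch 2.

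Of 8 tested genes of the reverse step and the pentose phosphate pathway, 0 were called in c-IDR against WT with the batch term, where 0.486% of all genes were. They lay at −0.09 to 0.10, with 0 at an edgeR unadjusted p under 0.05. In batch 2, 6 of 8 were called where 53.9% of all genes were, 2 higher and 4 lower, among them FBP1 (1.55 ± 0.13), which undoes the PFK step, TKT (0.28 ± 0.04), RPIA (−0.45 ± 0.06) and PGD (−0.25 ± 0.04). Subunits of AMPK and of protein kinase A, kinases that act on PFKFB proteins, had 0 of 9 called in c-IDR against WT, where 0.486% of all genes were. They lay at −0.13 to 0.09, with 0 at an edgeR unadjusted p under 0.05. In batch 2, where 53.9% of all genes were called, 5 of 9 were, a share near that background. PRKAB2 was the 1 higher (0.38 ± 0.05), and 4 were lower, led by PRKAR2B (−0.32 ± 0.05) and PRKACB (−0.39 ± 0.08).

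With the batch term, targets of hypoxia-inducible factors outside glycolysis had 8 of 12 called higher in c-IDR against WT, where 0.486% of all genes were called in either direction, led by BHLHE40 (1.11 ± 0.08), KDM3A (0.43 ± 0.05), VEGFA (0.89 ± 0.11) and NDRG1 (2.49 ± 0.34), and 11 of 12 in batch 2, where 27.7% of all genes were higher, led by BNIP3 (1.73 ± 0.06), VEGFA (1.495 ± 0.08), P4HA1 (0.92 ± 0.06) and NDRG1 (3.27 ± 0.23). In N-CTAD against WT 6 of the 12 were called higher (0.456% of all genes were called) and in FL against WT 1 (0.102%). In the model without batch, edgeR called 0 of the 12 in each of these 3 comparisons, with 4, 3 and 3 at an unadjusted p under 0.05. Without batch 2 and with the batch term, 3, 5 and 2 were called higher in c-IDR, N-CTAD and FL against WT, where 0.241%, 0.325% and 0.0838% of all genes were called. Directly compared, edgeR called 0 of the 12 in c-IDR against N-CTAD, with 5 at an unadjusted p under 0.05. CXCR4, named after its values were seen, was called in N-CTAD (2.10 ± 0.32) and was at 0.64 ± 0.33 in c-IDR. HIF1A was not called in c-IDR against WT or in batch 2, at −0.13 ± 0.11 and 0.07 ± 0.09.

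Genes most like the members were found by Pearson's r of log2 CPM over the 16 libraries among 12373 genes, a description in which all points share their batch. PFKP was nearest to PDE4C (0.98), TRPM4 (0.97), SLC25A42 (0.97), the glycogen branching enzyme GBE1 (0.97) and PFKFB4 (0.97). PFKFB3 was nearest to BNIP3 (0.99), FAM162A (0.99), EPHA8 (0.99), PTPRF (0.99) and DDIT4 (0.99), and PFKFB4 to SLC29A4 (0.99), PDK1 (0.99), DDIT4 (0.99), UPB1 (0.99) and SHMT2 (0.98). After batch means were subtracted, PFKP was nearest to PDE4C (0.91), NDUFA4L2 (0.90), AK4 (0.89), TNIP1 (0.88) and GBE1 (0.88). PFKFB4 was then nearest to TNIP1 (0.94), ALDOA (0.93), NOL3 (0.92), INHA (0.92) and LINC02348 (0.92), and PFKFB3 to ABR (0.87), INSIG2 (0.86), BNIP3 (0.85), ISCA1 (0.85) and TPD52 (0.85).

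Among the members, r over the 16 libraries was 0.97 for PFKP with PFKFB4, 0.98 for PFKFB3 with PFKFB4 and −0.93 for TIGAR with PFKFB4. With batch means subtracted these became 0.84, 0.54 and −0.41. PFKFB2 had r of 0.02 with PFKFB3 and 0.03 with PFKFB4. The r of PFKP with PFKFB4 thus fell less than that of PFKFB3 with PFKFB4, as numbers of these 16 libraries only. PFKL with PFKFB4 likewise went from 0.98 to 0.84, and PFKP with PFKL from 0.96 to 0.74. Differences between groups remain after batch means are subtracted, and PFKP and PFKFB4 were named with their higher c-IDR values known.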

How the data were processed

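The authors deposited gene tables of salmon estimated counts and of TPM (transcripts per 1 M transcripts), with no further scaling of the counts, per the file headers and values. The submitters' processing notes name fastp, STAR, Salmon, featureCounts and GRCh38, with versions and strand setting not given in the sources used here. Counts (15.5% not whole) were rounded, genes filtered with filterByExpr, and groups compared with edgeR 4.0.16 (TMM, quasi-likelihood, group only, 16 libraries, Benjamini-Hochberg over 19530 genes). SE is log2 fold change over the square root of F. CPM use TMM library sizes, and log2 CPM a prior count of 2. Totals were 38.6 to 56.1 M (mega) counts.

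Replicate numbers are also batches in the labels: deviations from group means correlated at a mean r of 0.308 (0.0674 to 0.712) between same-numbered libraries and −0.0945 otherwise. The replicate block, batch 2 left out, DESeq2 1.42.0, median-of-ratios factors, 2 other count filters, limma 3.58.1 on log2(TPM + 1) and log2(TPM + 0.1), the 8 libraries of a comparison alone and single libraries left out were alternatives. Shares of TPM were compared by exact permutation (scipy 1.17.1). No libraries were copies (chi-square per degree of freedom at least 7.24). Scripts were tested on simulated data. Members and lists were chosen with earlier results of these data known. Named genes were the members, EPAS1, up to 4 per list with the smallest adjusted p in c-IDR against WT or batch 2, and the 5 most correlated with PFKP, PFKFB3 and PFKFB4 at a mean log2 CPM of at least 1. One list of genes is not reported here.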

Additional observations from a re-analysis of the deposited data

Results flagged for a closer look

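In 17 of 28 gene and group sets of 4 libraries, 1 library lay farther from the other 3 than Dixon's 95% limit allows, and each time it was the library of batch 2; chance flags about 1 in 20 sets, and the sets share these libraries. Over all tested genes 9.49% of such sets did, 6.9% with the library of batch 2. Batch 2 was known to stand apart when the members were named, so the count is a description. PFKP was high in all 4 groups, at 33.0 CPM in WT, 35.5 in FL, 32.9 in N-CTAD and 55.2 in c-IDR. PFKFB3 was high in all 4, at 30.01, 31.2, 34.6 and 42.6 CPM in the same order. PFKFB4 was high in all 4, at 27.7, 35.8, 36.5 and 49.5 CPM. PFKL was high in WT (49.1 CPM), FL (59.8) and c-IDR (71.3), and PFKM in WT (224 CPM). TIGAR was low in c-IDR, at 16.3 CPM. PFKFB2 had no such library.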

How the results depend on the processing

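PFKFB2 had the lowest depth of the 7 genes, 120 to 231 counts per library, and the largest SE with the block, and what share of it depth sets was not tested. The count of members called in the model without batch was 0 in each of the 6 group comparisons, and it changed in few alternatives: with the replicate block to 1 in N-CTAD against WT, 3 in c-IDR against WT, 1 in c-IDR against FL and 1 in c-IDR against N-CTAD, without batch 2 to 1 in c-IDR against WT (of 33 genes called in all), and with the replicate block and without batch 2 to 2 there (of 46). With 1 library left out, with or without the block, it ranged from 0 to 3 in c-IDR against WT and from 0 to 1 against FL and N-CTAD, every change arising with the block. The block changed no other count of members called. Counts for the glycolysis and hypoxia target lists with the block and without batch 2 were chosen after seeing the data and stand beside those lists.

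Small differences changed sign. With limma on log2(TPM + 1) and no filter, PFKM lay below 0 in 6 of 6 group comparisons, at −0.059 to −0.0049, where the model without batch had it above 0. In the same fits PFKFB2 changed sign in 2 of 6 and TIGAR in 3 of 6. PFKFB3 in FL against WT, 0.013 in the model without batch, was −0.0026 with no count filter, −0.0037 with at least 10 counts in every library, −0.044 without batch 2 and −0.042 without batch 2 with the block; with the block and 1 library left out it was −0.058 (WT replicate 2), −0.0010 (WT replicate 4), −0.0019 (FL replicate 1), −0.010 (FL replicate 3) and −0.045 (FL replicate 4). PFKP in N-CTAD against FL was 0.035 without batch 2, with and without the block, and with the block 0.0041 without FL replicate 2, 0.017 without N-CTAD replicate 1 and 0.020 without N-CTAD replicate 2. Leaving out 1 library gave ranges whose ends came from leaving out a batch 2 library of either group: in FL against WT, −0.67 to 0.99 for PFKP, −0.18 to 0.40 for PFKL, −0.43 to 0.43 for PFKFB3 and −0.59 to 1.23 for PFKFB4. In N-CTAD against WT they were −0.65 to 0.94 for PFKP, −0.36 to 0.54 for PFKFB3 and −0.55 to 1.26 for PFKFB4, and in N-CTAD against FL −0.79 to 0.75 for PFKP, −0.14 to 0.45 for PFKL and −0.89 to 0.96 for PFKFB4. In c-IDR they were 0.09 to 1.69 for PFKP, 0.06 to 0.65 for PFKL, −0.36 to 0.69 for PFKFB3 and −0.29 to 1.64 for PFKFB4 against WT; −0.04 to 1.503, −0.09 to 0.58, −0.37 to 0.70 and −0.63 to 1.33 in the same order against FL; and 0.01 to 1.48, −0.21 to 0.39, −0.48 to 0.64 and −0.66 to 1.30 against N-CTAD. In batch 2 against the rest PFKP, PFKL, PFKM, PFKFB3 and PFKFB4 were called in 30 of 30 alternatives and TIGAR in 28, which limma did not call on TPM (−0.26 with a pseudocount of 1 and −0.27 with 0.1). The share of PFKL in that contrast was 3.68 percentage points higher by TPM and 5.30 by CPM.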

Other observations

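The balance of the minor PFK subunits followed both contrasts. PFKP RNA per PFKL RNA, as a ratio of TPM, was 0.316, 0.799, 0.337 and 0.300 in WT (batches 1 to 4) and 0.339, 0.710, 0.384 and 0.285 in FL. It was 0.253, 0.695, 0.365 and 0.309 in N-CTAD and 0.526, 0.908, 0.508 and 0.481 in c-IDR. The c-IDR library was highest in every batch, and batch 2 spanned 0.695 to 0.908 against 0.253 to 0.526 elsewhere.

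PFKFB1, the liver-type family member, stayed at 0.0399 to 0.219 TPM in all 16 libraries, so its fold changes rest on 16 counts or fewer per library and are not given.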
